A study of Homo sapiens with 6 samples.

Results

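Calpains are calcium-activated cysteine proteases, and their 2 best known forms pair a catalytic large subunit with a shared regulatory small subunit. The 8 genes described here are the small subunits CAPNS1 and CAPNS2, the large subunits CAPN1, CAPN2 and CAPN7, the inhibitor CAST, and the calmodulin-like genes CALML3 and CALML5. They are 8 of 18404 genes tested on the same arrays. They were chosen by name with their log2 differences between the groups already known from these data, so those values are a description, without a test. Each is read by 1 probe set. The cells were HaCaT, a spontaneously immortalised human keratinocyte line that the labels also call HFK. In 3 samples a lentiviral short hairpin RNA against TP63 (shTP63) was delivered, and 3 samples received a control vector (shControl). RNA was collected after 72 hours from cells grown in serum-containing medium. TP63 encodes p63, the transcription factor of basal keratinocytes. The cells were 1 line, the labels do not say how many hairpin sequences were used, and whether the replicates came from separate cultures is not given, so a p-value covers only the spread from array to array, possibly a technical one. The level of TP63 was not analysed here, so every direction rests on the sample labels.

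Calpains cut their substrates at few places, changing what a protein does more often than destroying it, and in keratinocytes they are known for work in spreading, migration and calcium-driven differentiation. The small and large subunits of the classical calpains carry penta-EF-hand domains, a group of calcium-binding loops, and calpastatin, the product of CAST, binds and blocks the active enzyme. Calmodulin is the general calcium sensor of the cell, and the epidermis makes related proteins, of which CALML5 is known from the upper, differentiating layers and CALML3 from epithelia more widely.

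The stretch before the start sites of both small subunit genes is shown because CAPNS2 had the largest difference of the 8 genes and CAPNS1 a smaller one. The 250 bases before the start are from RefSeq (GRCh38.p14), 5′ to 3′ on the gene's strand, with capitals marking CATG, a core of the half-sites bound by the p53 family. CALML5 and CALML3 are shown beside them as the members with the smallest differences.
CAPNS2: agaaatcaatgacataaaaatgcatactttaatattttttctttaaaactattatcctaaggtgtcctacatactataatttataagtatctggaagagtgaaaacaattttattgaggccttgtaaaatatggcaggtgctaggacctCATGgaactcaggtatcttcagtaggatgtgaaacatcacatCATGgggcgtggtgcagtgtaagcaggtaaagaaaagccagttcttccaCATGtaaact
CAPNS1: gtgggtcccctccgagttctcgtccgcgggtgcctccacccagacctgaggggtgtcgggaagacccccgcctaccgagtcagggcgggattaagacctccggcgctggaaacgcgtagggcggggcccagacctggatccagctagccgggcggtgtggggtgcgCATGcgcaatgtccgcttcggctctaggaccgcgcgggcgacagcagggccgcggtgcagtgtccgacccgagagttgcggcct
CALML5: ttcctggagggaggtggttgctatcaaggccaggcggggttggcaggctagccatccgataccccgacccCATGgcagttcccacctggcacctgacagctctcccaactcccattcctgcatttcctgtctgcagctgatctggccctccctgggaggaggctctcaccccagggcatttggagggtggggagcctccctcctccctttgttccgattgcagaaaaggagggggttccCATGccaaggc
CALML3: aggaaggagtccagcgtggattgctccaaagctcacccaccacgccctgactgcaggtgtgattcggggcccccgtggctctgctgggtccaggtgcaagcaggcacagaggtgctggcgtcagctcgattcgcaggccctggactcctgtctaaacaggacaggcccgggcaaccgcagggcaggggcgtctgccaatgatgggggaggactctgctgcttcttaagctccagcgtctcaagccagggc

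These stretches lie at chr16:55566434-55566683 (+) for CAPNS2, chr19:36139816-36140065 (+) for CAPNS1, chr10:5499571-5499820 (-) for CALML5 and chr10:5524711-5524960 (+) for CALML3. For CAPNS1 it is the first of 2 start sites listed. All 8 members were found in the RefSeq table, with 16 start sites. The CAPNS2 stretch was 35.2% G and C and held 1 CpG, whereas that of CAPNS1 was 70.4% G and C and held 28 CpGs at the first start site and 62.8% with 11 CpGs at the second. Among 27305 promoters of the same length, 1 for each gene listed, the median was 58.0% G and C with 11 CpGs, and 5.97% had a lower share of G and C than CAPNS2. CAPNS2 held 3 CATG, at positions -101, -59 and -10 counted from the start, a number reached by 5.395% of promoters. CAPNS1 held 1 at -84 before its first start and 0 before its second. CALML5 held 2 at -180 and -11, and CALML3 held 0. Of the other members, CAPN1 held 1 at -185 before its second start, and CAPN2 held 1 at -206 before its first. The remaining starts of CAPN1 and CAPN2, CAPN7 and the 5 starts listed for CAST held 0. At least 1 was held by 48.2% of promoters. A pair of CATG with 6 bases of any kind between them, which overlaps the CATG search, was present in 0.297% of promoters and in 0 of the 16 member stretches. The AP-1 letters TGANTCA were found, on either strand, in 6.60% of promoters. Among the member stretches they stood in both listed for CAPN2 and in 1 of the 5 listed for CAST. The GC box GGGCGG was present in 42.3% of promoters. It occurred 3 times before the first CAPNS1 start, 1 time before the second, and 0 times before CAPNS2, CALML3 and CALML5. Among the other members it occurred 5 times before the first CAPN1 start and the second CAST start, and 4 times before CAPN7. Before the remaining CAPN1 and CAST starts it occurred 0 to 2 times, and before the CAPN2 starts 0 times. These matches describe the letters in these windows and not binding.

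The arrays were alike within groups. Pearson's r across the 32321 probe sets, which are no replicates, was 0.996 to 0.998 within a group and 0.988 to 0.991 between groups. Of 18404 genes, 7634 (41.5%) passed in limma at a Benjamini-Hochberg adjusted p of 0.05, of which 3015 (16.4%) were higher and 4619 (25.1%) lower in shTP63. The median log2 intensity of an array was 7.44 to 7.47 in shControl and 7.54 to 7.57 in shTP63. With every array centred on its median the split was 1782 and 7932, and the median over all genes went from -0.01 to -0.12. Background was set at a log2 level of 6.76, below which 95% of 340 olfactory receptor genes lay on average over the arrays. All 10 keratinocyte markers measured lay above it, 2 rose and 4 fell, and their summed log2 level was 15.90 to 15.96 in shControl and 15.71 to 15.76 in shTP63. Of markers of other cells, 2 of 7 fibroblast, 3 of 4 melanocyte, 2 of 4 leukocyte and 3 of 4 endothelial genes lay under it. Summed, these were 10.10 to 10.14 against 10.17 to 10.26 for fibroblasts, 7.73 to 7.75 against 7.84 to 7.95 for melanocytes and 9.78 to 9.86 against 9.84 to 9.90 for endothelium. The leukocyte sum was 8.57 to 8.65 against 8.91 to 9.06, of which CD14 rose by 0.70 (SE 0.064, limma adjusted p = 4.25e-05), while PTPRC, the common leukocyte antigen, had a mean level of 4.29, under the background. The part of these markers in the results was not tested. In bulk RNA, fewer cells of a type and less RNA per cell cannot be told apart.

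Of the 8 members, 5 were lower in shTP63 past the threshold and 0 higher, where 25.1% of all genes were lower and 16.4% higher. In 6 members the 3 shTP63 values all lay below the 3 shControl values, as they did for 30.4% of all genes, and in 0 they all lay above, as for 20.9%. The groups were apart in either direction in 51.4% of all genes. The median difference of the members was -0.29, beside -0.01 for all genes. As the members were chosen with this comparison known, these counts only describe them, and nothing is read from them. Levels matter beside them: of the 3681 genes in each of 5 classes by mean intensity (3680 in the middle one), 1618 were lower in the brightest, which holds 5 members, and 1583 in the next, which holds CAPN7. Of the 3681 in the class of CALML3 and CALML5, 319 were lower. Among the 8 members, every calpain gene and CAST had a lower mean in shTP63, and both calmodulin-like genes lay close to 0.

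**Figure D1:**
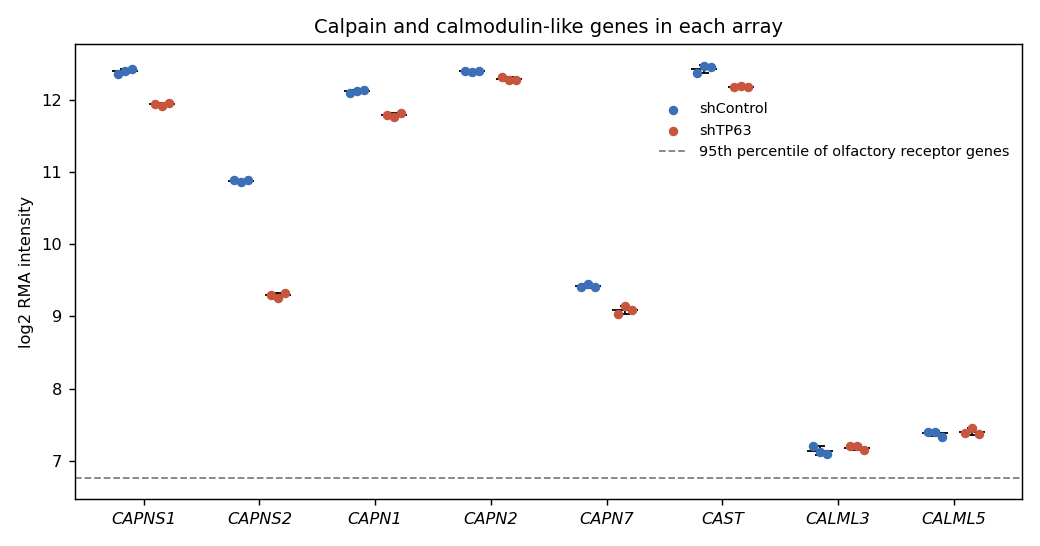
Log2 RMA intensity (y axis) of the 8 genes in each of the 6 arrays, with blue points for shControl and red for shTP63, 3 arrays each, and black bars for mean ± SD. CAPNS2 drops from about 10.88 to 9.29, the other calpain genes and CAST differ by less, and CALML3 and CALML5 overlap between groups just above the dashed background level of 6.76.

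CAPNS2, an intronless second gene for a calpain small subunit, had intensities of 1889, 1857 and 1888 in the shControl arrays and 631, 613 and 638 in the shTP63 arrays. The groups were far apart: the lowest shControl and highest shTP63 values were 1.54 apart on the log2 scale, while the arrays of a group spanned at most 0.058. The mean went from 10.88 ± 0.014 to 9.29 ± 0.030 (log2 intensity, SD, n = 3), so CAPNS2 fell by 1.58 (SE 0.041), or 2.99-fold, to 33.4% of the shControl level. Only 3 of the 18404 genes had a larger fall.

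CAPNS1, the small subunit gene expressed in most tissues, had intensities of 5262, 5376 and 5473 in shControl and 3922, 3855 and 3957 in shTP63. All shTP63 arrays were lower, with no overlap. The mean went from 12.39 ± 0.028 to 11.93 ± 0.019 (SD, n = 3), a fall to 72.8% of the shControl level. The log2 difference was -0.46 (SE 0.041). The log2 ratio of CAPNS2 to CAPNS1 within an array does not depend on how arrays are scaled relative to each other by a constant. Set to a mean of 0 in shControl, where the arrays had 0.04, -0.02 and -0.02, it was -1.12, -1.14 and -1.12 in shTP63. The CAPNS2 signal thus dropped by more than that of CAPNS1 in every shTP63 array, by a mean of 1.12 on the log2 scale. The SD of the ratio was 0.033 in shControl and 0.011 in shTP63 (n = 3 each).

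Among the large subunits, CAPN1 and CAPN7 were lower and CAPN2 changed least. CAPN1 encodes the catalytic subunit of mu-calpain, active at low calcium. Its intensities were 4348, 4445 and 4505 in shControl and 3549, 3466 and 3593 in shTP63, so that the groups were apart. Its log2 level fell by 0.33 (SE 0.042), from 12.11 ± 0.026 to 11.79 ± 0.026 (SD, n = 3). The arrays of each group ranked alike for CAPN1 and for its partner CAPNS1, with shControl replicate 3 highest and replicate 1 lowest in one group, and shTP63 replicate 3 highest and replicate 2 lowest in the other. These deviations from the group means were at most 0.03, and CAPNS2 had the same order in shTP63. Over the 6 arrays they correlated at r = 0.98 for CAPNS1 and CAPN1. For CAPNS1 with CAPN2 r was 0.11, and with CALML3 it was -0.93, so nothing is read from the shared order.

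CAPN2, the catalytic subunit gene of m-calpain, which needs more calcium, had intensities of 5388, 5359 and 5369 in shControl and 5103, 4931 and 4964 in shTP63. Its groups did not overlap, but the nearest values were only 0.070 apart on the log2 scale. The mean was 12.39 ± 0.0040 in shControl and 12.29 ± 0.026 in shTP63 (SD, n = 3), a difference of -0.10 (SE 0.041), or -0.21 with every array centred on its median. The log2 ratio of CAPN1 to CAPN2, set to a mean of 0 in shControl (SD 0.029), was -0.25, -0.23 and -0.19 in shTP63, so the signals of these subunits changed unequally.

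CAPN7 encodes a calpain without the penta-EF-hand domain, which binds ESCRT-III proteins, the membrane-cutting machinery of endosomes. Its intensities were 676, 699 and 679 in shControl and 524, 567 and 544 in shTP63, and the groups were apart. Its log2 level fell by 0.33 (SE 0.046), from 9.42 ± 0.026 to 9.09 ± 0.058 (SD, n = 3), with shTP63 replicate 1 the lowest array.

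CAST, the calpastatin gene and thus the inhibitor of the classical calpains, was lower as well. Its intensities were 5281, 5652 and 5624 in shControl and 4629, 4651 and 4601 in shTP63. The groups did not overlap, and shControl replicate 1 lay nearest to the shTP63 arrays. CAST fell by 0.25 on the log2 scale (SE 0.045), from 12.43 ± 0.054 to 12.18 ± 0.0078 (SD, n = 3), to 83.9% of the shControl level. The log2 ratio of CAST to CAPN1, with a shControl mean of 0 and SD of 0.033, was 0.07, 0.11 and 0.04 in shTP63, next to -0.04, 0.03 and 0.00 in shControl. All 3 shTP63 ratios lay above the shControl ratios, by amounts similar to the spread between arrays.

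Both calmodulin-like genes had levels little above the background of 6.76, which compresses a true change. CALML3, an epithelial calmodulin relative that binds myosin-10, had intensities of 147, 139 and 137 in shControl and 147, 147 and 141 in shTP63. The groups overlapped, and the log2 difference of 0.04 (SE 0.047) was smaller than the range of the shControl arrays, 0.11. CALML5, the skin calmodulin-like gene of late differentiation, had intensities of 169, 168 and 161 in shControl and 167, 175 and 165 in shTP63. Its groups overlapped too, with a difference of 0.02 (SE 0.046). This does not show that they stayed the same, and the differences were -0.07 and -0.08 with arrays centred on their medians. The genes are neighbours on chromosome 10, with 0 other RefSeq genes lying wholly between them. The antisense gene CALML3-AS1 overlaps CALML3 and was not measured by a probe set with a single gene name.

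Differences on these arrays varied with signal level, so each member's difference was set beside the median of its class by mean intensity. In the brightest class, which holds CAPNS1, CAPNS2, CAPN1, CAPN2 and CAST, the median difference was -0.10. The CAPN2 difference was -0.0062 beyond that median, whereas CAPNS2 lay -1.48, CAPNS1 -0.36, CAPN1 -0.23 and CAST -0.16 beyond it. CAPN7 lay in the next class, also with a median of -0.10, and was -0.23 beyond it. CALML3 and CALML5 lay in the second dimmest class, whose median was 0.03. CALML3 was 0.013 above it and CALML5 differed from it by -0.0035. The pooled SD within groups lay below the median of the class in all 8 members. It was 0.019 to 0.039 for those in the brightest class, against 0.045, and 0.045 for CAPN7, against 0.054. CALML3 and CALML5 had 0.047 and 0.043, against 0.083.

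**Figure D2:**
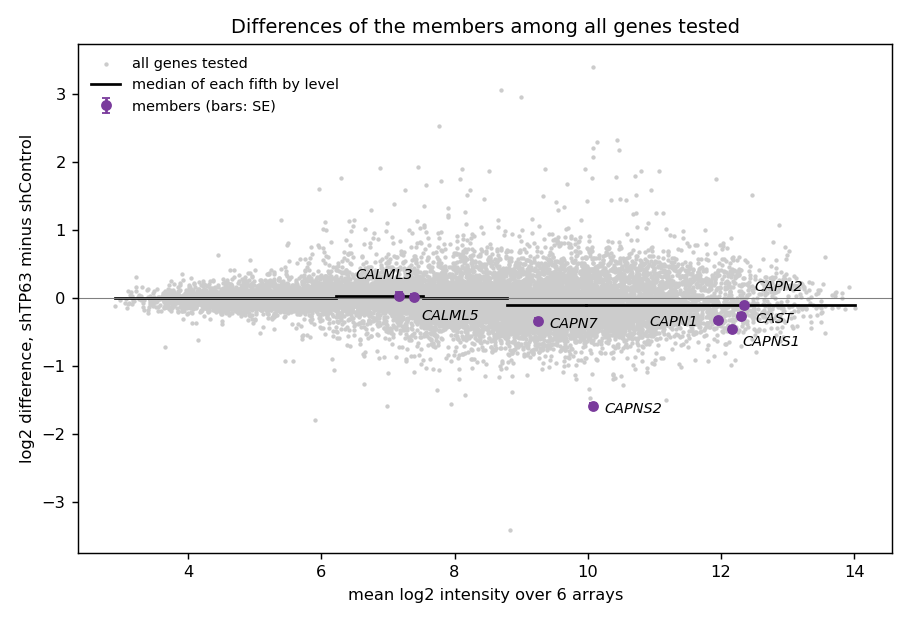
Log2 difference, shTP63 minus shControl (y axis), against the mean log2 intensity over the 6 arrays (x axis), with all 18404 genes in grey, the members in purple with SE bars, and black lines for the median of each of the 5 classes by level. CAPNS2 at -1.58 lies near the lower edge of the cloud, while CAPN2 lies on the line of its class.

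The genes whose 6 values ran most like those of CAPNS2 were CA2, PTPRZ1 and PALMD, the first a carbonic anhydrase and the second a receptor phosphatase. Likeness was the root mean square difference between log2 values, each gene set to 0 at its shControl mean, over 6 arrays and 13309 other genes above background. It was 0.079 for CA2, 0.090 for PTPRZ1 and 0.095 for PALMD, and the differences of CA2 and PALMD were -1.49 and -1.55. Only genes with a difference close to that of CAPNS2 can come near it by this measure, so the search finds falls of like size. PTPRZ1 went from 7.78 to 6.19, under the background, so its measured difference and its likeness to CAPNS2 are not exact and its fall has only a bound. CAPNS2 was the only member with a difference of at least 0.5 in size, the size set for this search, which 6.99% of all genes reached.

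CAPNS2 lies within the bounds of LPCAT2, a lysophosphatidylcholine acyltransferase gene, in the RefSeq annotation, and the genes around it moved the other way. LPCAT2 rose from 12.51 ± 0.034 to 12.99 ± 0.0099 (SD, n = 3), a difference of 0.48 (SE 0.042, limma adjusted p = 3.30e-05). The measured gene before it, MMP2, a gelatinase, rose by 1.00 (SE 0.042, limma adjusted p = 8.85e-07), and the one after it, the noradrenaline transporter gene SLC6A2, rose by 0.59 (SE 0.058, limma adjusted p = 6.81e-05). In all 3 the groups did not overlap, and each kept its call in the 13 alternatives.

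**Figure D3:**
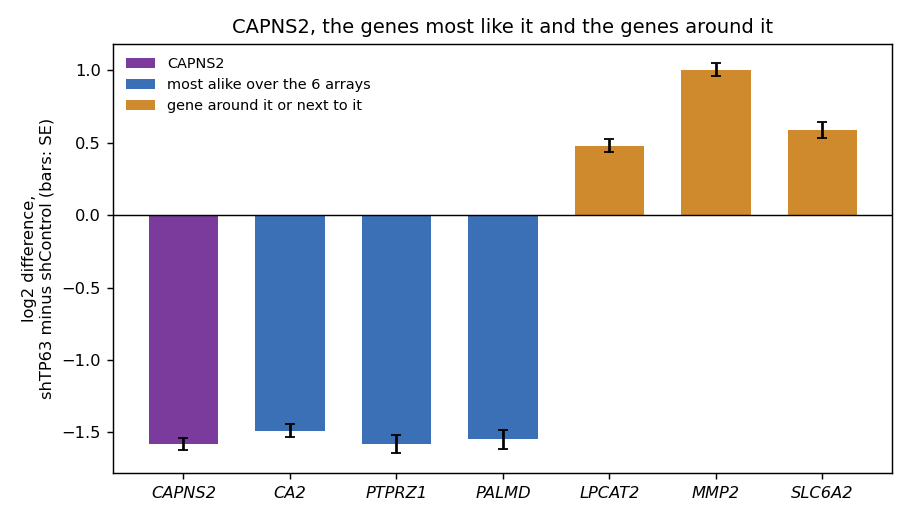
Log2 difference, shTP63 minus shControl (y axis, bars from 0 with SE), of CAPNS2 in purple, of the 3 genes most alike over the 6 arrays in blue, and of the gene around it and the measured genes next to it in orange. CAPNS2 fell by 1.58 while LPCAT2, MMP2 and SLC6A2 rose by 0.48 to 1.00, and the shTP63 level behind the PTPRZ1 bar lay under the background.

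The other calpain genes that were measured had small differences. Of 11 further calpain genes listed, 7 were measured by a probe set with 1 gene name. Of these, 4 had mean levels under the background, which compresses a true change. CAPN5 rose by 0.17 (SE 0.056, limma adjusted p = 0.0395) and CAPN6, a member without the catalytic cysteine, fell by 0.17 (SE 0.060, adjusted p = 0.0477) with both groups under the background. CAPN5 lost its call in 8 of 13 alternatives, among them those without shControl replicate 2 (limma adjusted p = 0.125) or 3 (0.131) and without shTP63 replicate 2 (0.1002) or 3 (0.113). CAPN6 lost it in 5 of 12, among them those without shControl replicate 1 (limma adjusted p = 0.136) or 2 (0.116) and without shTP63 replicate 2 (0.126) or 3 (0.138). Thus 28.6% passed, where 41.5% of all genes did, and the differences ran from -0.22 to 0.17. The list's median of 0.04 became -0.07 with arrays centred on their medians, -0.07 after quantile normalization and -0.02 after cyclic loess.

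Small penta-EF-hand proteins share the fold of the calpain small subunits. All 3 measured of 4 listed passed, where 41.5% of all genes did. The list's median was -0.27. PEF1 fell by 0.48 (SE 0.064, limma adjusted p = 0.000327) and SRI, which encodes the calcium release regulator sorcin, fell by 0.27 (SE 0.055, limma adjusted p = 0.00352). GCA, the grancalcin gene, rose by 0.26 (SE 0.065, limma adjusted p = 0.00987) with both groups under the background, and lost its call under 2 scalings.

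Among calmodulin-like and centrin genes, 5 were measured. CETN2, a centrin of centrioles and DNA repair, fell by 0.69 (SE 0.046, limma adjusted p = 9.53e-06) and CALML4 fell by 0.22 (SE 0.047, limma adjusted p = 0.00430). The other 3 did not pass, and 0 rose, so 40% passed beside 41.5% of all genes. The list's median was -0.12.

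Of 17 measured genes for proteins that act under calmodulin, 5 rose and 6 fell, where 16.4% of all genes were higher and 25.1% lower, and the list's median was -0.01, as for all genes. CAMK2D, a calmodulin-dependent kinase, fell by 0.83 (SE 0.045, limma adjusted p = 3.41e-06). The calcineurin catalytic subunit genes PPP3CA and PPP3CB fell by 0.34 (SE 0.042) and 0.24 (SE 0.042), with limma adjusted p of 0.000227 and 0.00173. The plasma membrane calcium pump ATP2B1 rose by 0.56 (SE 0.060, limma adjusted p = 0.000104). The count of rises was 3 without any 1 array other than shTP63 replicate 3, and 1 with arrays centred on their medians, where 8 fell. MYO10, named after its value was seen because its product binds that of CALML3, had a difference of 0.11 (SE 0.043), short of the threshold at a limma adjusted p of 0.0807.

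Of 13 measured genes for cytoskeletal and adhesion proteins that calpains cut, 7 rose and 4 fell, beside 16.4% higher and 25.1% lower among all genes, and the list's median was 0.16. VCL, for vinculin, rose by 0.65 (SE 0.041, limma adjusted p = 7.03e-06), ITGB1, for the integrin beta-1 chain, by 0.57 (SE 0.044, adjusted p = 1.87e-05) and SPTBN1, a spectrin gene, by 0.34 (SE 0.043, adjusted p = 0.000257). TLN1, for talin, which links integrins to actin, fell by 0.30 (SE 0.052, limma adjusted p = 0.00138). With arrays centred on their medians 5 rose and 5 fell.

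Of 10 measured ESCRT-III and VPS4 genes, to which CAPN7 is linked, 0 rose and 7 fell, against 16.4% and 25.1% of all genes, and the list's median was -0.17. Their mean levels were 8.58 to 12.10, with a median of 10.12, beside 8.17 for all genes. Falls were more frequent among bright genes. In the brightest class by mean intensity 1618 of 3681 genes were lower, and in the next 1583 of 3681. Both classes had a median difference of -0.10. CHMP4C fell by 0.72 (SE 0.054, limma adjusted p = 1.59e-05), CHMP1B by 0.50 (SE 0.045, adjusted p = 3.79e-05), CHMP2A by 0.41 (SE 0.040, adjusted p = 6.76e-05) and the ATPase gene VPS4A by 0.28 (SE 0.047, adjusted p = 0.00125). After quantile normalization 5 fell, and after cyclic loess 4. IST1, whose product binds CAPN7 and which was named after its value was seen, had a difference of 0.00 (SE 0.045).

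Of 13 genes that handle calcium in the epidermis, 9 rose and 0 fell, with 16.4% of all genes higher and 25.1% lower, and the list's median was 0.23. The Golgi calcium pump gene ATP2C1, mutated in Hailey-Hailey disease, rose by 0.48 (SE 0.044, limma adjusted p = 4.55e-05), the endoplasmic reticulum calcium sensor STIM1 by 0.49 (SE 0.055, adjusted p = 0.000121) and the inositol trisphosphate receptor ITPR3 by 0.41 (SE 0.051, adjusted p = 0.000229). The channel gene TRPC1 rose by 0.58 (SE 0.077, limma adjusted p = 0.000322) with both groups under the background. The count of rises was 9 without any 1 array and 6 with arrays centred on their medians, where 1 gene fell.

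Of 20 late epidermal differentiation genes, the class in which CALML5 is known, 3 rose, 5 fell and 12 did not pass. The 40% that passed was close to the 41.5% of all genes, and the share that fell to the 25.1% lower among all genes. IVL, for involucrin, fell by 1.04 (SE 0.044, limma adjusted p = 8.85e-07), KRT1 by 1.02 (SE 0.073, adjusted p = 1.26e-05) and TGM1, a cross-linking enzyme, by 0.99 (SE 0.049, adjusted p = 2.14e-06). SPRR2A, a cornified envelope precursor, rose by 1.14 (SE 0.082, limma adjusted p = 1.31e-05) from a shControl level under the background. In 8 of the 20 the mean level lay under the background. Without shTP63 replicate 3, 5 genes rose, and with arrays centred on their medians 8 fell. The median of 0.01 became -0.09 with that centring, -0.09 after quantile normalization and -0.04 after cyclic loess.

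**Figure D4:**
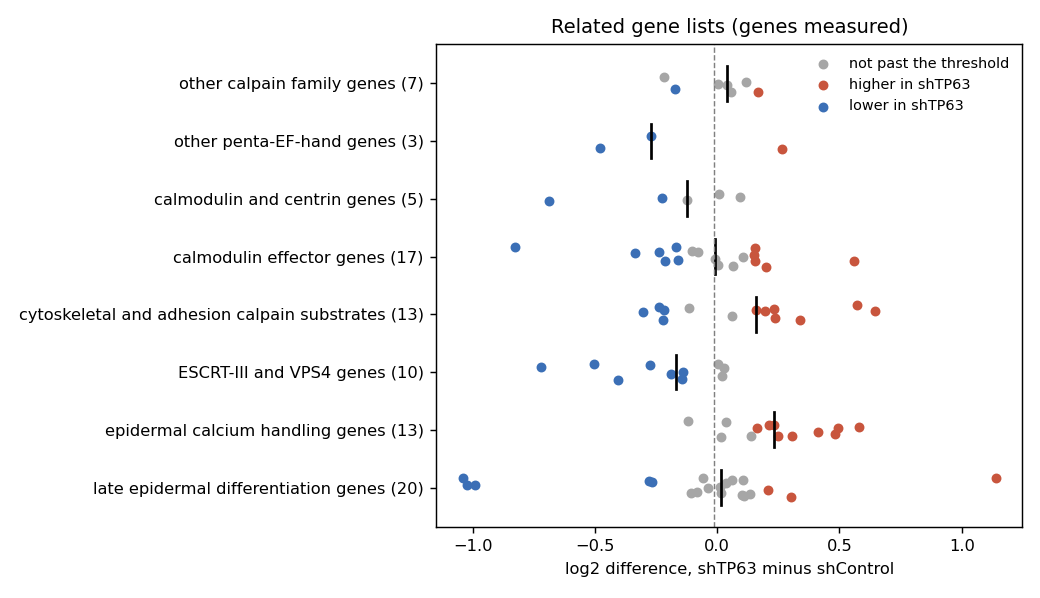
Log2 difference, shTP63 minus shControl (x axis), of each measured gene in 8 related lists, with red points higher and blue points lower past an adjusted p of 0.05, grey points not past it, black bars for list medians and a dashed line for the median of all genes, -0.01. Epidermal calcium handling genes lie to the right (9 of 13 higher) and ESCRT-III and VPS4 genes to the left (7 of 10 lower), while the medians of the other calpain family genes, the late differentiation genes and the calmodulin effectors lie near 0, the first 2 turning negative under other scalings.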

How the data were processed

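RNA from 6 HaCaT samples was labelled with biotin and read on 1-colour arrays. Per the submitters' processing notes, the authors made the deposited intensity values with RMA in R 2.15.1. The aligner of probes, the genome build and further filters were not given in the sources used here. The deposited arrays keep a shift between the groups, with median log2 intensities of 7.44 to 7.47 in shControl and 7.54 to 7.57 in shTP63. The intensities are linear, and log2 was taken of them.

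Names came from the platform annotation: 19158 probe sets carried 1 gene, 1388 several and 11775 were unlisted. Of those with 1 gene, 19128 matched RefSeq by Entrez identifier. Each gene was read by its probe set with the highest mean. The test was limma 3.58.1 (lmFit, eBayes, two-sided) under R 4.3.3, adjusted over 18404 genes, threshold 0.05. The median SE was 0.053, and the 3 arrays per group limit precision. The fit was tested on simulated data. The members, lists and alternatives were chosen with earlier results of these data known. The text names the members, up to 4 genes per list by smallest adjusted p among those past the threshold, the 3 genes most like any member that differs by at least 0.5, and its neighbours. Of 103 listed genes in 8 lists 88 were measured. Replicate numbers were not taken to pair the samples.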

Additional observations from a re-analysis of the deposited data

How the results depend on the processing

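The limits are the 3 arrays per group, a signal close to background for CALML3 and CALML5, and an unchecked knockdown. Over 13 alternatives CAPNS2 ranged from -1.69 to -1.51, CAPNS1 from -0.56 to -0.39, CAPN1 from -0.43 to -0.26, CAPN7 from -0.44 to -0.28 and CAST from -0.36 to -0.19. CAPN2 ranged from -0.21 to -0.04 and passed the threshold as lower in 3 of the 13. These were the centring of arrays on their medians, the fit without the dimmest 40% of genes and the trended robust prior. In each of them 6 members were lower, in place of 5. Over 12 alternatives CALML3 ranged from -0.07 to 0.07 and CALML5 from -0.09 to 0.04. With arrays centred on their medians, 1782 genes were higher and 7932 lower, against 3015 and 4619 on the deposited scale. Centring also gave 0 higher and 2 lower of the other calpains, 0 higher of the penta-EF-hand genes, 1 higher of the calmodulin effectors, 1 lower of the calcium handling genes and 8 lower of the late differentiation genes. Quantile normalization gave 0 higher and 2 lower of the other calpains and 0 higher of the penta-EF-hand genes. Cyclic loess gave 0 higher and 2 lower of the other calpains and 4 lower ESCRT-III and VPS4 genes. Without the dimmest 40% of genes, 0 other calpains were lower, 0 penta-EF-hand genes higher, 1 calcium handling gene lower and 1 late differentiation gene higher, partly because fewer list genes were left, and the trended robust prior gave 1 lower calcium handling gene. The cause of the other changes was not tested. With 1 array left out, other calpains were higher in 0 to 1 and lower in 0 to 2 genes, calmodulin effectors higher in 3 to 4, and late differentiation genes higher in 2 to 5. At an adjusted p of 0.01, 2096 genes were higher and 3468 lower. The deviations of same-numbered arrays from their group means correlated at -0.15, -0.04 and 0.13 across genes, so the numbers are not taken to pair the samples. With the replicate number as a block, 2832 genes were higher and 4333 lower, and 0 other calpains were higher.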
